A study of Mus musculus with 24 samples.

Results

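The GALNT genes encode polypeptide GalNAc-transferases, the Golgi enzymes that start mucin-type O-glycans. Members were listed by name. They were Galnt1, Galnt2, Galnt3, Galnt6, Galnt7, Galnt10, Galnt11, Galnt12, Galnt14 and Galnt18, 10 of the 52636 gene identifiers in the table, and each was followed over all 24 libraries. RNA was sequenced from MC38, a mouse colorectal cancer cell line of C57BL/6 origin, with 3 samples from each of 8 lines. The study asked what truncated O-glycans on tumor cells do, and the further lines carry changes in sialic acid activation or fucosylation.

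MC38-WT was unmodified and was harvested at passages 7, 8 and 9. MC38-MOCK#1 received CRISPR-Cas9 with no target gene. MC38-COSMC KO, the line called MC38-Tnhigh in the paper, had CRISPR-Cas9 against COSMC (mouse C1galt1c1), the chaperone of the enzyme that extends the Tn antigen. MC38-CMAS KO had Cas9 against CMAS, which activates sialic acid for transfer, and MC38-DKO had both targets. These Cas9 lines were harvested at passages 4, 5 and 6. MC38-MOCK#2, MC38-FUT4 and MC38-FUT9 carried CRISPR-dCas-VPR, a catalytically dead Cas9 fused to transcription activators, with no target, FUT4 or FUT9, and FUT4 and FUT9 add fucose to the outer ends of glycans. Their passages were 6, 7 and 8 for MC38-MOCK#2 and MC38-FUT9 and 7, 8 and 7 for MC38-FUT4. All lines except MC38-WT were kept in puromycin. MC38-COSMC KO was sorted in bulk on binding of a GalNAc-specific lectin, and the line is therefore no single clone. In RNA of whole cultures, fewer cells of a type and less RNA per cell cannot be told apart.

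A GALNT enzyme moves N-acetylgalactosamine from UDP-GalNAc onto serine or threonine, which yields the Tn antigen. The family members share this chemistry and differ in the proteins and positions they prefer. Some start glycosylation on bare peptides, whereas follow-up enzymes prefer peptides that already carry GalNAc. In colorectal cancer the Tn antigen is known as a tumor-associated truncated O-glycan, which accumulates when the next sugar is not added.

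Values are normalized counts, read counts that the authors scaled per library and rounded. Library totals ranged from 10911849 to 12263307 with a median of 11333462.5. Replicates are 3 samples per line, described as harvests at separate times, and p-values measure only the spread between them. Samples 1 and 3 of the line labelled FUT4 have the same passage number. They were the closest of the 24 replicate pairs by the mean squared difference over the sum, 5.19 against 7.72 to 39.1 in the others. By Pearson's r of log2 values (0.984) they were below samples 1 and 2 of MC38-FUT9 (0.986) and of MC38-MOCK#2 (0.985). Whether samples 1 and 3 of the line labelled FUT4 are separate harvests is not given by the labels. The p-values of that line may therefore be too small. Cmas was 93 to 142 in MC38-CMAS KO and MC38-DKO and at least 272 in the other lines, and C1galt1c1 was 124 to 163 in MC38-COSMC KO, 220 to 251 in MC38-MOCK#1 and 166 to 206 in MC38-DKO, where it overlapped with MC38-CMAS KO and MC38-WT. Fut4 was 1, 0 and 1 in the libraries labelled FUT4 and 0 in all others, while Fut9 was 171 to 209 in the line labelled FUT4, 641 to 955 in MC38-FUT9 and at most 7 in other lines. Hence that line is called the line labelled FUT4. Of 9 epithelial markers, Epcam, Krt18, Krt19, Cdh1 and Cdx2 had at most 3 normalized counts in any library, Krt8 and Vil1 at most 8 and Lgals4 at most 14, whereas Krt20 reached 468 in the line labelled FUT4 and 44 in MC38-CMAS KO. Of 5 mesenchymal markers, Vim had 19787 to 33315, Pdgfrb 27 to 1100, Col1a1 19 to 255 and Col1a2 4 to 131, and Thy1 was at 0 in all libraries.

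Promoters of 3 members are printed, those of the strongly expressed Galnt7 and Galnt10 and that of Galnt14, which had no RNA in any library. RefSeq start sites (GRCm38.p6) were matched for 6 of the 10 members, 8 sites in all. CG dinucleotides, which mark CpG-rich promoters, are in capitals in the bases before each start that no annotated exon covers, read 5′ to 3′ on the strand of the gene. The Galnt7 region is chr8:57653056-57653305 (minus strand), the Galnt10 region chr11:57645192-57645441 (plus strand) and the Galnt14 region chr17:73710454-73710701 (minus strand).
Galnt7: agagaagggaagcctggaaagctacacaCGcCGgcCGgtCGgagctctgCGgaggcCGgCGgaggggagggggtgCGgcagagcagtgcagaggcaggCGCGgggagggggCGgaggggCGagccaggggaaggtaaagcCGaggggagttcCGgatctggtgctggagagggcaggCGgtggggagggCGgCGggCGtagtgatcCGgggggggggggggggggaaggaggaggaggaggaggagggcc
Galnt10: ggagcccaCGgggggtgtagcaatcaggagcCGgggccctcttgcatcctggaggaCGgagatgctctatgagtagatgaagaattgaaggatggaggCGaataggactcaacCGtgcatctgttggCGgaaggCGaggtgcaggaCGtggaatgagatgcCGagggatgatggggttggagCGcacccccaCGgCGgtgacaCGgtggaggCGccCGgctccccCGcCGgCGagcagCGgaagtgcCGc
Galnt14: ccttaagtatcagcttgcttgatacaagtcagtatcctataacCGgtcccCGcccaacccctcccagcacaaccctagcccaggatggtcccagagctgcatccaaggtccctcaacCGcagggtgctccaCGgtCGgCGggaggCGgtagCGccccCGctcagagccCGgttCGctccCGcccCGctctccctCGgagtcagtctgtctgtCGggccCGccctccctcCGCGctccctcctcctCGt

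Galnt7, Galnt10 and Galnt14 held 19, 20 and 19 CG dinucleotides in the 250 bases before the start. The median over all 32851 start sites was 6, and 19.7% of them held at least 19. Galnt3, with 34 CG dinucleotides, was in the top 3.53% of all sites by this count. Galnt7, the member with the highest mean normalized count, and Galnt14, at 0 in all libraries, thus held the same number in this window. GGGCGG, the core of a GC box, was found on either strand at 5 of the 8 member sites and at 32.7% of all sites. TATAAA was at 0 of the 8 member sites against 12.4% of all, and CCAAT at 0 against 33.8%. Such matches are descriptions of the letters in this window.

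Among initiating enzymes with broad specificity, Galnt1 was strongly expressed, and Galnt2 had few normalized counts, which do not give its RNA level. Galnt1 (ENSMUSG00000000420, chromosome 18, plus strand) ranged from 540 to 1130 with a median of 730.5. In MC38-WT it had 813, 800 and 901 normalized counts, in MC38-MOCK#1 687, 679 and 731, and in MC38-CMAS KO 730, 756 and 692. Values were 712, 760 and 742 in MC38-COSMC KO and 722, 679 and 693 in MC38-DKO. They were 626, 735 and 760 in MC38-MOCK#2, 552, 540 and 578 in the line labelled FUT4, and 1030, 1130 and 1011 in MC38-FUT9. Galnt1 therefore fell into 4 levels whose samples did not overlap: MC38-FUT9 highest, then MC38-WT, then 5 lines that overlapped with each other, then the line labelled FUT4. Means were 1057 ± 63.9 in MC38-FUT9, 838 ± 54.9 in MC38-WT, 698 to 738 in the middle lines and 557 ± 19.4 in the line labelled FUT4 (SD, n = 3).

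Galnt2 is known for glycosylating lipid-handling proteins such as Pltp. It lies on the plus strand of chromosome 8 of GRCm38 from 124231391 to 124345724 (ENSMUSG00000089704) and had 2 to 8 normalized counts in each of the 24 libraries. Of its 4282 exonic bases, 3854 (90.0%) are shared with Gm20388 on the same strand, which was at 0 in all 24 libraries. Reads that overlapped more than 1 gene were excluded by the authors. Only 428 bases of Galnt2 could then collect reads, so its low value does not give the level of Galnt2 RNA. Per exonic kb the mean was 1.25, and per kb of unshared exon it was 12.5.

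Follow-up enzymes were represented by Galnt7 and Galnt10, both known to prefer peptides that already carry GalNAc. Galnt7 (ENSMUSG00000031608) lies on the minus strand of chromosome 8 from 57523828 to 57653032. In MC38-WT it had 1000, 1187 and 1264 normalized counts, in MC38-MOCK#1 870, 946 and 1007, and in MC38-CMAS KO 978, 877 and 960. Values were 1082, 1036 and 992 in MC38-COSMC KO and 1010, 845 and 789 in MC38-DKO. They were 907, 950 and 1064 in MC38-MOCK#2, 831, 1002 and 869 in the line labelled FUT4, and 1275, 1182 and 1259 in MC38-FUT9. Each line overlapped with the next in the order of means, from 1239 ± 49.7 in MC38-FUT9 to 881 ± 115 in MC38-DKO (SD, n = 3).

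Galnt10 (ENSMUSG00000020520) lies on the plus strand of chromosome 11 from 57645442 to 57787514. MC38-WT had 536, 611 and 535 normalized counts, MC38-MOCK#1 571, 577 and 657, and MC38-CMAS KO 667, 638 and 602. In MC38-COSMC KO the values were 691, 640 and 634 and in MC38-DKO 573, 582 and 586. MC38-MOCK#2 had 535, 467 and 536, the line labelled FUT4 620, 554 and 634, and MC38-FUT9 460, 428 and 441. All 3 MC38-FUT9 samples of Galnt10 were below every other library. The means of Galnt1 and Galnt7 were highest in the same line, although Galnt7 overlapped with MC38-WT there. The other neighbours in the order of Galnt10 overlapped. Galnt10 means ran from 655 ± 31.3 in MC38-COSMC KO to 513 ± 39.6 in MC38-MOCK#2 and 443 ± 16.1 in MC38-FUT9 (SD, n = 3).

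Galnt11, known for glycosylating Notch1 and endocytic receptors, was the least abundant of the members with at least 80 normalized counts in every library. It lies on the plus strand of chromosome 5 from 25221904 to 25265918 (ENSMUSG00000038072) and ranged from 80 to 225 with a median of 143.5. Samples of a line were widely spread, as in MC38-MOCK#1 with 134, 127 and 219, MC38-WT with 117, 196 and 151 and MC38-MOCK#2 with 113, 114 and 171. Values were 131, 154 and 137 in MC38-CMAS KO, 150, 99 and 129 in MC38-COSMC KO and 121, 100 and 80 in MC38-DKO. The line labelled FUT4 had 179, 159 and 163, and MC38-FUT9 had 165, 160 and 225. Neighbouring lines in the order of Galnt11 means overlapped throughout, from 183 ± 36.2 in MC38-FUT9 to 100 ± 20.5 in MC38-DKO (SD, n = 3). Galnt7 and Galnt11 share 98 and 306 exonic bases with genes on the opposite strand, and since the strand setting of the counting is not given in the sources used here, reads there cannot be told apart.

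**Figure D1:**
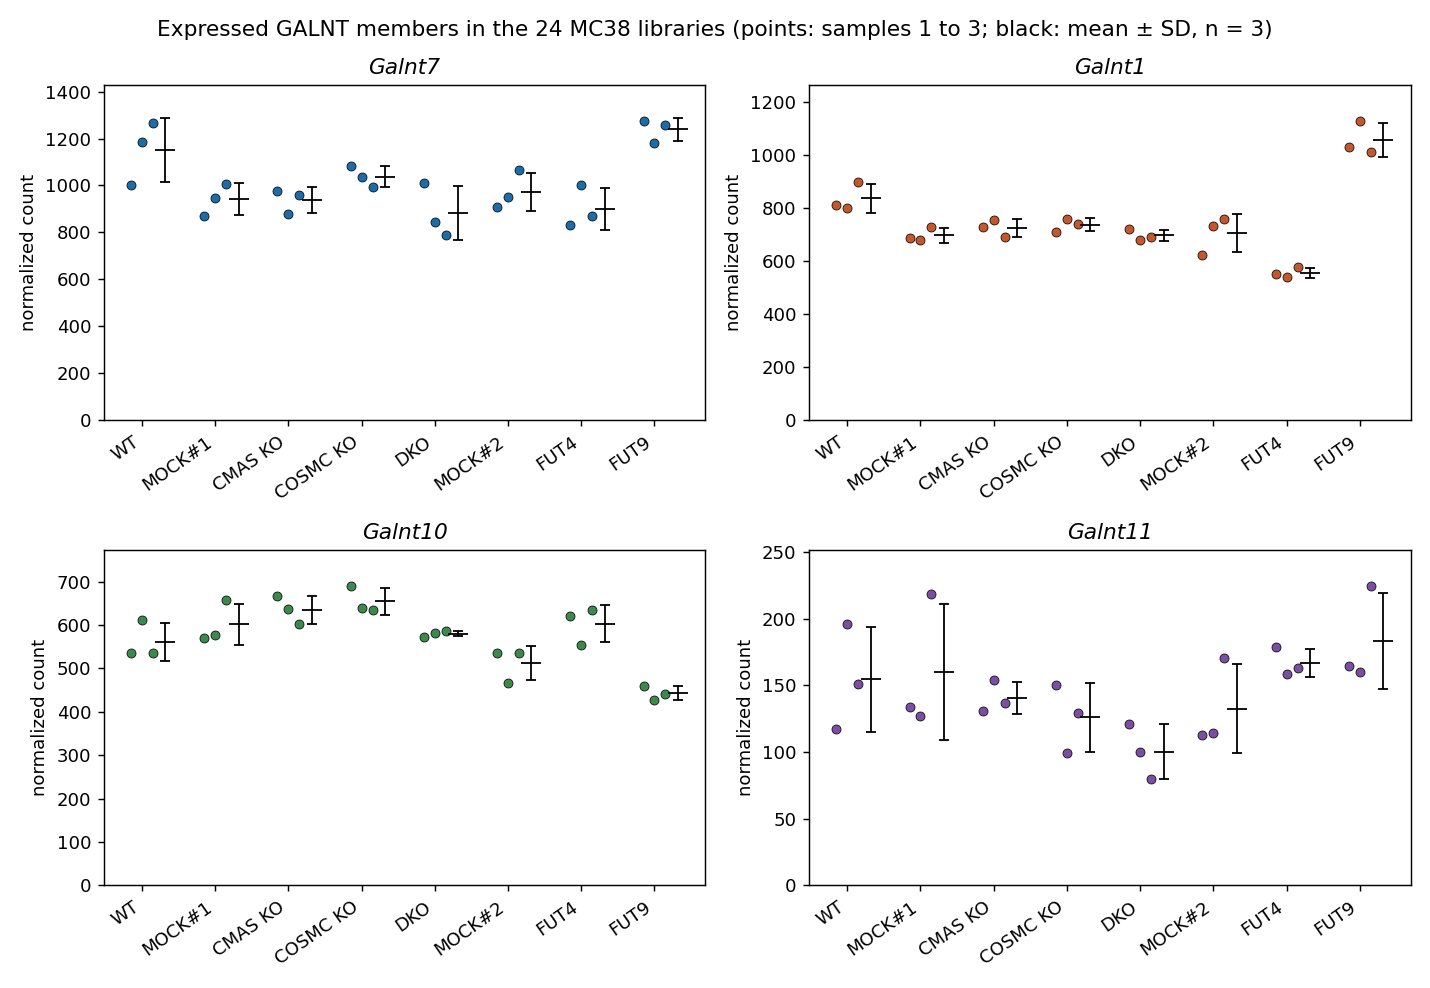
Normalized counts (y axis) of Galnt7, Galnt1, Galnt10 and Galnt11 in each sample (points) of the 8 MC38 lines (x axis), with mean ± SD in black (n = 3). FUT4 is the line labelled FUT4. Galnt1 was 1011 to 1130 in MC38-FUT9 and 540 to 578 in the line labelled FUT4, outside the range of the other lines, and Galnt10 was lowest in MC38-FUT9.

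The remaining members were at or near 0. Galnt6, which acts on mucins and fibronectin (ENSMUSG00000037280, chromosome 15, 100691813 to 100729376), had 0 to 2 normalized counts and was above 0 in 14 libraries. Galnt12, an enzyme normally made in the colon (ENSMUSG00000039774, chromosome 4, 47091909 to 47123070), had 1 in samples 2 and 3 of the line labelled FUT4 and 0 in the other 22 libraries. Galnt3, which protects the hormone Fgf23 from cleavage (ENSMUSG00000026994, chromosome 2, 66082766 to 66124994), was at 0 in all 24. So were Galnt14, linked to death receptor glycosylation (ENSMUSG00000024064, chromosome 17, 73493228 to 73710453), and Galnt18, a family member with weak activity of its own (ENSMUSG00000038296, chromosome 7, 111471661 to 111779977). A sum of 0 over the 24 libraries allows up to 3 of the 273711392 normalized counts of these libraries, a limit that covers counting error only. Of the 10 members, 6 passed the filter on low values in comparisons without the line labelled FUT4 and 7 (with Galnt12) in the pairwise comparisons with it.

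**Figure D2:**
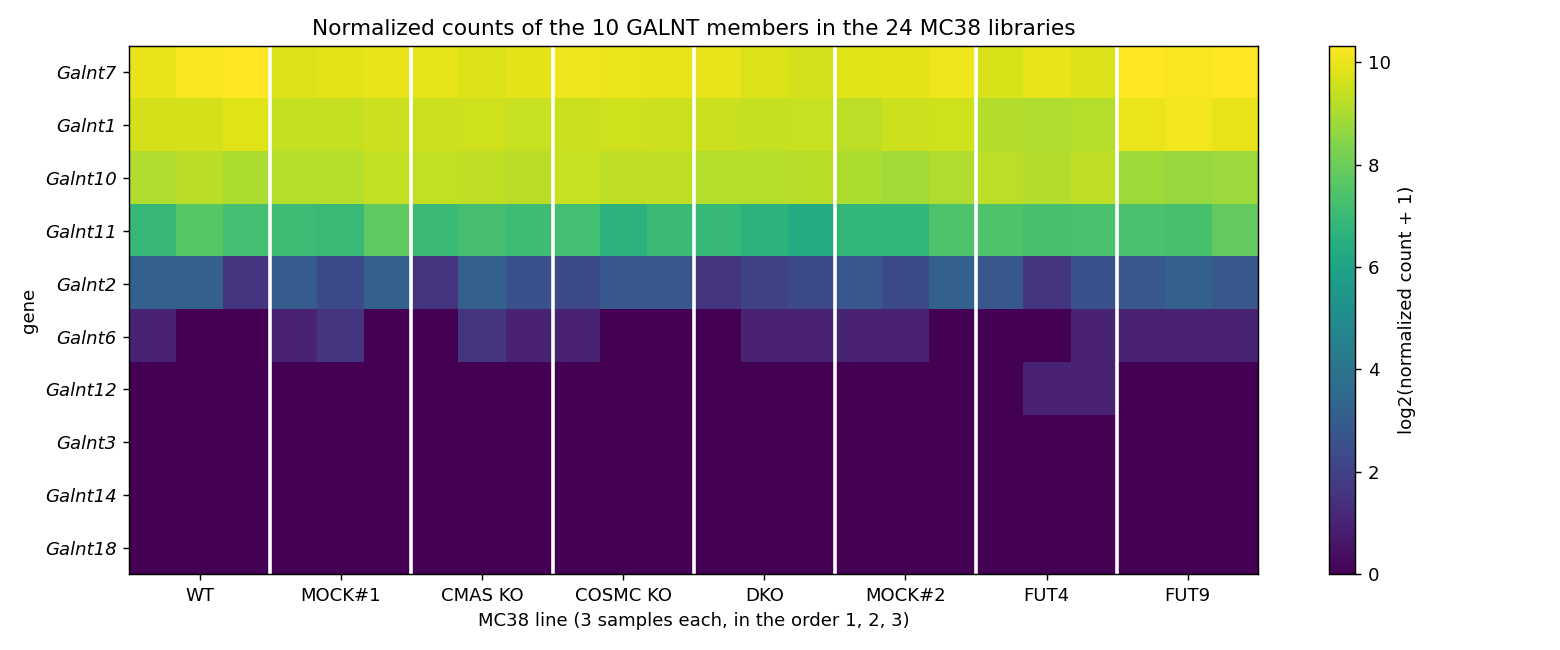
Log2(normalized count + 1) (color) of the 10 members (rows) in the 24 libraries (columns, samples 1 to 3 of each of 8 lines). FUT4 is the line labelled FUT4. The top 4 rows reach 80 to 1275 normalized counts, Galnt2 stays at 2 to 8, and Galnt3, Galnt14 and Galnt18 are 0 throughout.

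To compare genes, levels were divided by exonic length. Galnt7 was highest with a mean of 192 normalized counts per kb over the 24 libraries, followed by Galnt1 with 136, Galnt10 with 96.2 and Galnt11 with 21.2. Among these genes Galnt7 was highest in all 24 libraries, and the full order held in 22. Galnt2 cannot be placed in this order, since its value does not give its RNA level. With the length of the longest transcript Galnt7 was highest in 23. Of the 9 other GALNT genes, Galnt4 had a mean of 4.72 per kb (13 to 39 normalized counts), Galntl6 had 2 to 13 normalized counts, Galnt13 and Galntl5 were at 0, and Galnt5, Galnt9, Galnt15, Galnt16 and Galnt17 did not exceed 6. Summed over all 19 genes, the level per kb ran from 403 ± 7.79 in the line labelled FUT4 to 536 ± 3.09 in MC38-FUT9 (SD, n = 3). Galnt10 made up 13.9% ± 0.44 of this sum in MC38-FUT9 and 19.03 to 25.1% in the other lines, by means of 3 samples. Galnt1 made up 35.8% ± 2.37 in MC38-FUT9 and 25.03% ± 0.99 in the line labelled FUT4. Galnt7 stayed between 40.2 and 44.1% in the line means. Galnt2 entered the sum and the shares at a mean of 1.25 per exonic kb, which does not give its RNA level. Per kb of unshared exon its mean was 12.5, so the sum and the shares hold no usable Galnt2 value.

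**Figure D3:**
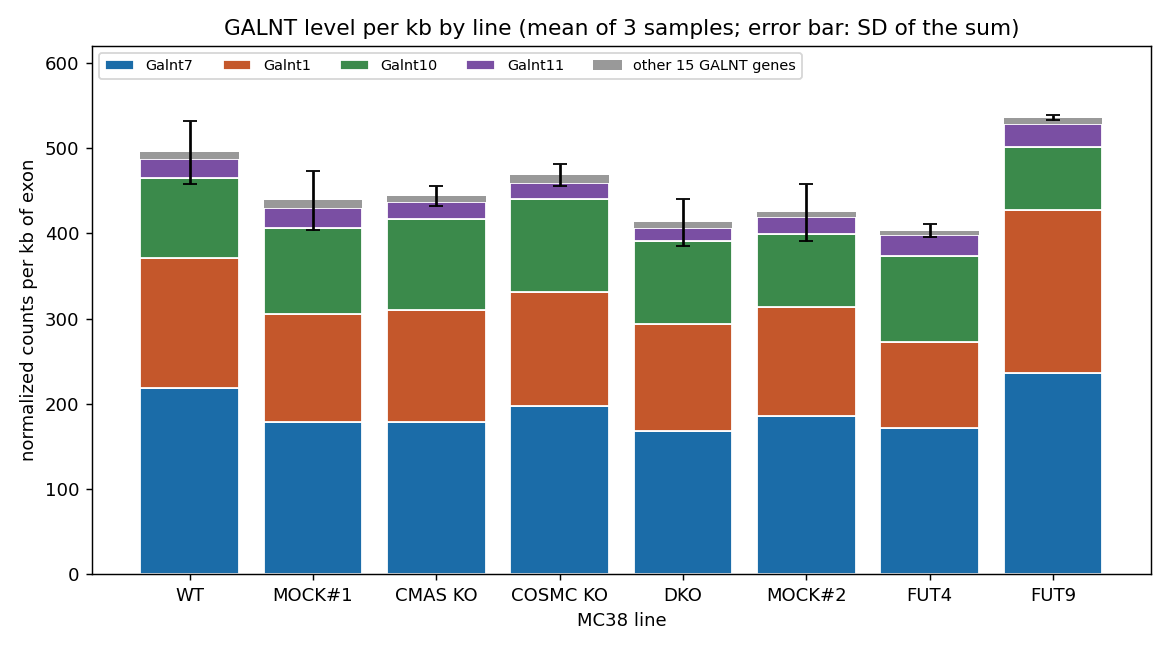
Stacked bars of normalized counts per kb of exon (y axis) for Galnt7, Galnt1, Galnt10, Galnt11 and the other 15 GALNT genes in the 8 lines (x axis), as means of 3 samples, with the SD of the sum as error bar. FUT4 is the line labelled FUT4. The sum is 536 in MC38-FUT9 and 403 in the line labelled FUT4, and the Galnt10 segment is smallest in MC38-FUT9. Galnt2, among the other genes, is counted per kb of all its exons, which does not give its RNA level.

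Do GALNT transcripts differ when the chaperone of the enzyme that extends their product is targeted? In MC38-COSMC KO no member was called against MC38-MOCK#1 by limma (adjusted p below 0.05), whereas 11.6% of all tested genes were. None of the 6 tested members had an unadjusted p below 0.05. Galnt7 differed by 0.14 on the log2 scale (95% interval -0.03 to 0.31, adjusted p = 0.273), Galnt1 by 0.08 (-0.07 to 0.22) and Galnt10 by 0.12 (-0.06 to 0.31). For Galnt11 the difference was -0.32 with a wide interval (-0.89 to 0.25). The samples of the lines overlapped for all 6, while 28.4% of all genes did not overlap. The intervals of Galnt1, Galnt7 and Galnt10 exclude a rise or fall of more than about 0.31, and Galnt2 and Galnt6 were too low for a narrow interval. C1galt1c1, the targeted gene, was lower by -0.73 (SE 0.125, adjusted p = 0.0128).

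Loss of Cmas gave no member call either, against 5.76% of all genes, and no member had an unadjusted p below 0.05. Galnt7 differed by -0.00 (95% interval -0.19 to 0.18), Galnt1 by 0.05 (-0.10 to 0.21) and Galnt10 by 0.08 (-0.11 to 0.27). Samples of all 6 tested members overlapped, and 24.3% of all genes did not overlap. In MC38-DKO against MC38-MOCK#1, limma called 0.092% of all genes and no member. Galnt11 was the only tested member whose samples did not overlap (121, 100 and 80 against 134, 127 and 219). Its difference of -0.64 (SE 0.238, unadjusted p = 0.0253) had an adjusted p of 0.552, and 11.2% of all genes did not overlap in this comparison.

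Against MC38-CMAS KO, the line with the same Cmas target, no member of MC38-DKO was called, and 6.93% of all genes were. C1galt1c1 RNA overlapped between these lines, with a difference of 0.01 on the log2 scale, and was not called. Galnt11 was below MC38-CMAS KO in all 3 samples with a difference of -0.50 (SE 0.175, unadjusted p = 0.0210, adjusted p = 0.139). Galnt10 also did not overlap, at 573, 582 and 586 against 667, 638 and 602, with a difference of -0.13 (adjusted p = 0.361). In this comparison 24.5% of all genes did not overlap. The difference between the COSMC target with and without the Cmas target was tested as an interaction over the 4 Cas9 lines. It was called for no member and for 22.1% of all genes. The interaction compares lines by target, since C1galt1c1 RNA was not lower in MC38-DKO than in MC38-CMAS KO. Galnt10 had the smallest unadjusted p (0.0347), with -0.25 (95% interval -0.49 to -0.02, adjusted p = 0.117), and was the only member below 0.05. It was called at -0.32 (adjusted p = 0.0410) without MC38-MOCK#1 sample 3, and Galnt7 was called at -0.34 (adjusted p = 0.0462) without MC38-DKO sample 1.

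Controls were compared with each other as well. In MC38-WT against MC38-MOCK#1 no member was called, against 5.51% of all genes. Galnt1 was higher in all 3 MC38-WT samples, a pattern of no overlap seen for 23.4% of genes, but its difference of 0.26 (SE 0.0818, unadjusted p = 0.0147) had an adjusted p of 0.124. Galnt7 overlapped, at 0.29 (unadjusted p = 0.0327, adjusted p = 0.193). Later passage, the absence of puromycin and the absence of a vector cannot be told apart here. In MC38-MOCK#2 against MC38-MOCK#1, with 11.3% of all genes called and 28.7% not overlapping, no member was called. Galnt10 did not overlap, at 535, 467 and 536 against 571, 577 and 657, with a difference of -0.23 (SE 0.0928, unadjusted p = 0.0428, adjusted p = 0.172).

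In MC38-FUT9 transcripts of an initiating and of a follow-up enzyme were higher than in MC38-MOCK#2. Galnt1 was 1030, 1130 and 1011 against 626, 735 and 760, a 1.498-fold level or 0.58 on the log2 scale (SE 0.0924, adjusted p = 0.00540). Galnt7 was 1275, 1182 and 1259 against 907, 950 and 1064, a 1.27-fold level or 0.35 (SE 0.0777, adjusted p = 0.0190). Neither gene overlapped between the lines. These were 2 of 6 tested members, or 33.3%, whereas 24.1% of all genes were called in either direction and 12.1% were higher. A count of 2 in 6 is too small to set the members apart from all genes. When each library was rescaled to the same total, the share of called genes that were higher moved from 50.3 to 37.9%, and Galnt7 was then at 0.26 and not called (adjusted p = 0.0763). Galnt7 also lost its call without MC38-MOCK#2 sample 1 or 2 or MC38-FUT9 sample 1 or 3 (adjusted p = 0.0560 to 0.0797), while Galnt1 kept its call without any 1 of the 6 libraries (highest adjusted p = 0.0382).

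Galnt10 was lower in MC38-FUT9, 460, 428 and 441 against 535, 467 and 536, without overlap, as for 36.8% of all genes. Its difference of -0.21 (SE 0.0807) had an adjusted p of 0.115, and it was called at -0.27 (adjusted p = 0.04998) without MC38-MOCK#2 sample 2. Galnt11 was higher by 0.47 (SE 0.209, adjusted p = 0.159) with overlapping samples. With the replicate number as a block, since same-numbered samples of these lines deviated together, Galnt11 was called as well (adjusted p = 0.0273), and Galnt1 and Galnt7 kept their calls (adjusted p = 0.0236 and 0.0415).

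In the line labelled FUT4, Galnt1 was lower. It had 552, 540 and 578 normalized counts against 626, 735 and 760 in MC38-MOCK#2, with no overlap, a 0.790-fold level or -0.34 on the log2 scale (SE 0.0903, adjusted p = 0.0459). This was 1 of 7 tested members, or 14.3%, and 16.1% of all genes were called, 8.04% lower. The call was lost on leaving out MC38-MOCK#2 sample 2 or 3 or any sample of the line labelled FUT4 (adjusted p = 0.101 to 0.143), with differences of -0.29 to -0.37. It was also lost with libraries rescaled to the same total (adjusted p = 0.0508) or by median of ratios (0.0514), without a trend (0.135) and with the replicate block (0.0865). Galnt10 was higher without overlap (620, 554 and 634 against 535, 467 and 536), by 0.23 (adjusted p = 0.137), as 32.1% of all genes did not overlap. Galnt7 differed by -0.11 (95% interval -0.34 to 0.12) and Galnt11 by 0.36 (-0.07 to 0.78), and Galnt11 was called at 0.55 (adjusted p = 0.0251) without MC38-MOCK#2 sample 3. The 9 epithelial markers summed to 270 to 481 in this line, almost all of it Krt20 (448, 263 and 468), against 8 to 63 in the other lines. Of the 9, 7 were at most 10 in every library. Against MC38-MOCK#2, 6 of the 9 were tested, with 1 higher and 1 lower call. Endothelial markers summed to 6 to 19 against 0 to 12 in the other lines, and of the 2 tested against MC38-MOCK#2 1 was called higher. Of the 5 mesenchymal markers, 4 were tested against MC38-MOCK#2 and 3 were lower, Pdgfrb (117, 117 and 135 against 471, 581 and 1100), Col1a1 (31, 19 and 26 against 134, 90 and 109) and Col1a2 (4, 9 and 6 against 30, 26 and 23), while the sum of the list, mostly Vim, was 28474 to 29359 against 22454 to 27755. Of 5 leukocyte markers, 3 were tested and 1 was higher, Ptprc, with 3, 5 and 1 against 0 in each MC38-MOCK#2 sample. Mesenchymal calls were not particular to this line. Against MC38-MOCK#1, 4 of that list were tested, with 3 higher in MC38-CMAS KO and 2 higher in each of MC38-COSMC KO, MC38-WT and MC38-MOCK#2. MC38-MOCK#2, the control here, was thus itself above MC38-MOCK#1 for 2 of the 4. In MC38-DKO 3 of 4 were lower than in MC38-CMAS KO. None was called in MC38-DKO against MC38-MOCK#1 or in MC38-FUT9 against MC38-MOCK#2. The part of these markers in the Galnt1 result was not tested.

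MC38-FUT9 was then compared directly with the line labelled FUT4, a comparison chosen after the values had been seen. Both had been set against the same MC38-MOCK#2 samples. Galnt1 was 1.90-fold higher in MC38-FUT9, or 0.92 on the log2 scale (SE 0.0640, adjusted p = 0.000139), and Galnt7 was 1.38-fold higher, or 0.46 (SE 0.0808, adjusted p = 0.00528). Galnt10 was 0.736-fold, or -0.44 (SE 0.0722, adjusted p = 0.00404). Samples did not overlap for these 3 members, as for 41.4% of all genes, and 31.5% of all genes were called. The 3 calls kept their side of the threshold without any 1 of the 6 libraries. Galnt11 differed by 0.12 (95% interval -0.23 to 0.46).

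**Figure D4:**
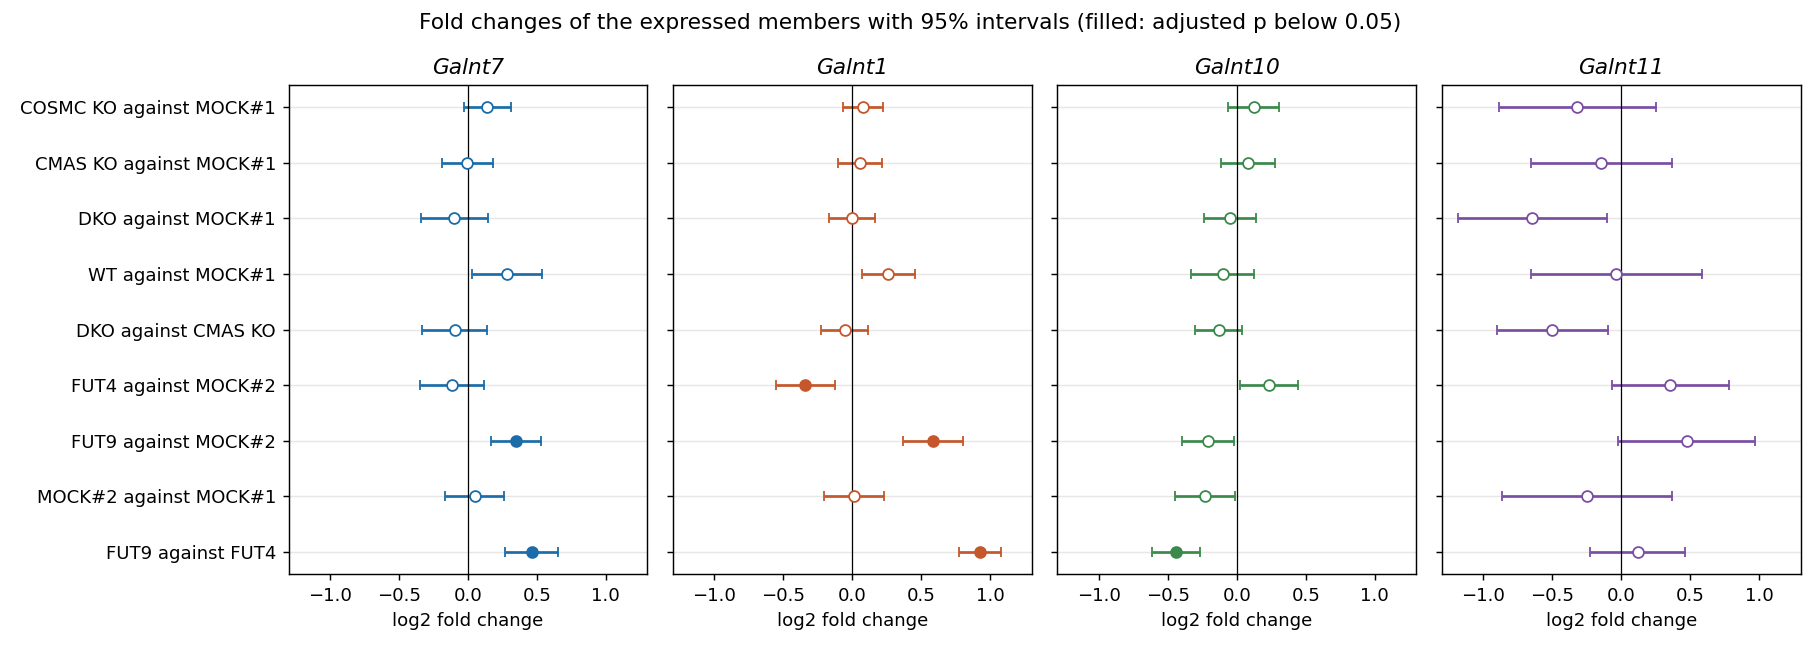
Log2 fold change (x axis) of Galnt7, Galnt1, Galnt10 and Galnt11 in 9 pairwise comparisons (y axis), with 95% intervals from limma. Filled points have an adjusted p below 0.05, and FUT4 is the line labelled FUT4. Filled points are found only in the comparisons with a dCas-VPR line that has a target: Galnt1 at -0.34, 0.58 and 0.92, Galnt7 at 0.35 and 0.46, and Galnt10 at -0.44.

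Over all 8 lines, limma's moderated F-test called 3 of the 6 tested members and 48.2% of all genes. Galnt1 had F = 24.8 (adjusted p = 1.25e-07), Galnt10 F = 10.4 (adjusted p = 6.92e-05) and Galnt7 F = 6.28 (adjusted p = 0.00157). Galnt11 was not called, with an adjusted p of 0.0527, but was called at 0.0476 when only genes with a mean of at least 10 were kept. Galnt11 was called in 7 of the 24 fits that leave out 1 library, those without MC38-WT sample 1 or 2, MC38-MOCK#1 sample 2 or 3, MC38-COSMC KO sample 1, MC38-DKO sample 1 or MC38-MOCK#2 sample 3 (adjusted p = 0.0256 to 0.0418). Galnt4, an enzyme with a preference for glycosylated peptides that is no listed member, also differed among lines (adjusted p = 0.0149), from a mean of 36.0 in MC38-COSMC KO to 14.7 in MC38-MOCK#2. It was called in no pairwise comparison.

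The genes with the pattern most like each of these members were found by Pearson's r of log2 values over the 24 samples, among 10873 genes. For Galnt1 they were Mef2a (r = 0.931), Cdyl2 (0.926) and Rhobtb3 (0.923). Galnt10 was most like Htra1 (r = 0.911), Faah (0.899) and Nid2 (0.898), and Galnt7 most like Stk3 (r = 0.908), Ppp2r3a (0.882) and Atrx (0.875). These values are descriptions, since samples of a line are not independent of each other and share library scaling.

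Genes around the GALNT step were counted from lists. UDP-GalNAc supply held 8 genes, all tested. MC38-FUT9 against MC38-MOCK#2 gave 2 higher and 3 lower calls there, which is 62.5% of the list against 24.1% of all genes, with a list median of -0.38 on the log2 scale against 0.01 for all genes. Gnpnat1 and Uap1, which act in the synthesis of the UDP-GlcNAc precursor, rose by 0.74 and 0.35. Galk2, the GalNAc kinase, was lower at -1.34 and Uap1l1 at -0.63. In the line labelled FUT4, with 16.1% of all genes called, the list had 2 lower calls, Uap1l1 (-1.08) and Galk2 (-0.39). Both dCas-VPR lines were set against the same MC38-MOCK#2 samples, which were themselves higher than MC38-MOCK#1 for Uap1l1 and Galk2. In MC38-COSMC KO, with 11.6% of all genes called, the list had 1 call in either direction, Gnpnat1 (0.53) and Galk2 (-0.54). MC38-CMAS KO and MC38-DKO had none against MC38-MOCK#1.

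Downstream of the GALNT enzymes, C1galt1, which adds galactose to the Tn antigen, was 274 to 502 in all libraries and in pairwise tests was called only between MC38-FUT9 and the line labelled FUT4 (0.61, adjusted p = 0.00332). St6galnac1 was at 0 in all 24 libraries, and B3gnt6 did not exceed 6. Of 15 listed GALNT substrates, 11 were tested in MC38-FUT9 against MC38-MOCK#2, with 2 higher and 3 lower, 45.5% of those tested against 24.1% of all genes. The endocytic receptors Lrp1 (1.19) and Lrp8 (0.50) were higher, and the mucin Muc1 (-2.09), the death receptor Tnfrsf10b (-1.49) and Notch1 (-0.75) were lower. In the line labelled FUT4, 4 of 11 were called, with 16.1% of all genes called. Lrp8 was higher (0.60), and Pltp (-1.50) and Tnfrsf10b (-0.65) were among those lower. In MC38-COSMC KO 3 of 11 were called, Vldlr (1.14), Lrp8 (0.33) and Tnfrsf10b (-0.65), where 11.6% of all genes were. In MC38-CMAS KO 2 of 12 were called, Vldlr (1.29) and Lrp8 (0.47), where 5.76% of all genes were. Both were set against the same MC38-MOCK#1 samples, as was MC38-MOCK#2, where Vldlr was also higher (1.21). MC38-DKO had no substrate call against MC38-MOCK#1, and against MC38-CMAS KO it had 4 of 11 lower, where 6.93% of all genes were called, Lrp1 (-1.60), Fn1 (-1.15), Vldlr (-0.87) and Lrp8 (-0.50). In MC38-WT, with 5.51% of all genes called, the calls were 1 of 8 supply genes, Gnpnat1 (0.84), and 1 of 11 substrates, the secreted Spp1 (2.33). In MC38-MOCK#2 against MC38-MOCK#1, with 11.3% of all genes called, 2 of 8 supply genes, Galk2 (0.89) and Uap1l1 (0.84), were higher.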

How the data were processed

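RNA-seq values of 24 MC38 libraries were used. Per the labels and the methods of the study, mRNA libraries were made with a stranded kit and sequenced as single reads, and the authors aligned them with HISAT2 2.0.4 to GRCm38 and counted with featureCounts (Subread 1.5.0-p3), leaving out reads over more than 1 gene. In the deposited table a value is a score, since the authors scaled read counts per library (library size and TMM, edgeR 3.18.1) and rounded them to whole numbers. They are not raw counts, so count models were not fitted. Scaled totals do not give the read depth, and a value of 1 is near the smallest that a library can show.

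limma 3.58.1 in R 4.3.3 (lmFit, eBayes with a trend) was run on log2(value + 1) over all genes, so fold changes of low genes are understated. A pairwise fit held 6 samples and dropped genes at 0 in more than 4 of them (8 of 12 or 16 of 24 in larger fits). A gene was called at a Benjamini-Hochberg adjusted p below 0.05. The interaction used the 4 Cas9 lines and the F-test all 8. Intervals are 95%. No other tool was run. The fits were tested on simulated data. Lengths are the union of exons in the deposited table. Motifs were searched on both strands in 250 bases before RefSeq start sites.

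Deviations from line means were correlated between samples with the same replicate number to see whether the numbers pair samples. Every pair exceeded 0.1 only for MC38-FUT9 against MC38-MOCK#2 (lowest 0.113) and MC38-MOCK#2 against MC38-MOCK#1 (lowest 0.123). The numbers were therefore taken to pair these samples, a hint from the data, since the labels name no pairs. By the labels, same-numbered samples of MC38-FUT9 and MC38-MOCK#2 had equal passages (6, 7 and 8), and those of MC38-MOCK#2 and MC38-MOCK#1 did not. Passages were also equal by number among the Cas9 lines, where not every pair exceeded 0.1. The fits without the block are reported, with the blocked value where a call changes.

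The members and gene lists were chosen with earlier results of these data known. Named genes are the 10 members, the other GALNT genes, the targeted genes, genes called in the lists (the 2 of either direction with the largest change where more than 4 were called) and, for the 3 members with the largest F, the 3 genes with the highest r. B3gnt6, St6galnac1, Notch1 and the marker genes were named after their values were seen. Some listed genes are counted but not reported here by name, so Uap1l1 is named in place of one of them. Alternatives covered the pseudocount, filter, scaling, trend, samples in the fit, block, a threshold on the fold change and leaving out each sample. The direct comparison of MC38-FUT9 with the line labelled FUT4 and the unshared length of Galnt2 were added after the data had been seen.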

Additional observations from a re-analysis of the deposited data

Results flagged for a closer look

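The effects of the lines with a dCas-VPR target against their shared control differed for 3 members when the lines were tested directly. Galnt1 differed by 0.92 on the log2 scale between MC38-FUT9 and the line labelled FUT4, and it was lower than MC38-MOCK#2 in 3 of 3 samples of the line labelled FUT4 and higher in 3 of 3 of MC38-FUT9. Galnt7 differed by 0.46 in the same comparison. Galnt10 differed by -0.44, with higher values in all 3 samples of the line labelled FUT4. Groups of 3 samples are too small for the search for single outlying samples.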

How the results depend on the processing

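No called member difference changed sign under any alternative, whereas 17 of 62 member differences in the pairwise comparisons and the interaction did, none of them called. Against MC38-MOCK#1, leaving out a sample gave ranges in MC38-CMAS KO of -0.75 to 0.047 for Galnt2, -0.058 to 0.047 for Galnt7 (0.0056 with median of ratios) and -0.29 to 0.10 for Galnt11. In MC38-DKO they were -0.026 to 0.031 for Galnt1, -0.63 to 0.17 for Galnt6 and -0.085 to 0.016 for Galnt10, and in MC38-WT -0.45 to 0.34 for Galnt2 and -0.22 to 0.21 for Galnt11. In MC38-MOCK#2 they were -0.043 to 0.097 for Galnt1 (-0.00046 with the same total), -0.32 to 0.16 for Galnt2, -0.63 to 0.17 for Galnt6 and -0.017 to 0.099 for Galnt7. The others were Galnt6 in MC38-DKO against MC38-CMAS KO (-0.63 to 0.17), Galnt2 in MC38-FUT9 against MC38-MOCK#2 (-0.060 to 0.36), Galnt11 in MC38-FUT9 against the line labelled FUT4 (-0.037 to 0.21) and, for the interaction, Galnt2 (-0.72 to 0.069) and Galnt6 (-0.097 to 0.76).

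The count of called members was 0 under all alternatives in MC38-COSMC KO, MC38-CMAS KO and MC38-DKO against MC38-MOCK#1 and in MC38-DKO against MC38-CMAS KO. A fit of all 8 lines called 1 member in MC38-WT against MC38-MOCK#1 (Galnt1, adjusted p = 0.0209), 1 in MC38-MOCK#2 against MC38-MOCK#1 (Galnt10, adjusted p = 0.0479) and 2 in the line labelled FUT4 (with Galnt10, adjusted p = 0.0389). In the line labelled FUT4 the count was 0 in place of 1 with the same total per library (adjusted p of Galnt1 = 0.0508), with median of ratios (0.0514), without a trend (0.135), with the replicate block (0.0865) and with an absolute log2 fold change above 1, and 0 to 1 on leaving out a sample. In MC38-FUT9 against MC38-MOCK#2 it was 1 in place of 2 with the same total and without a trend (adjusted p of Galnt7 = 0.0781), 0 with a fold change above 1, and 1 to 2 on leaving out a sample. With the fold change above 1, both MC38-FUT9 against the line labelled FUT4 and the F-test had 0 members in place of 3, and on leaving out a sample both had 3 to 4. The interaction had 0 to 1 on leaving out a sample.

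Genes called varied more. The replicate block gave 4 in place of 2563 in MC38-COSMC KO, 1 in place of 1268 in MC38-CMAS KO, 0 in place of 20 in MC38-DKO (1408 at an unadjusted p below 0.05), 0 in place of 1192 in MC38-WT (3788 unadjusted), 795 in place of 1515 in MC38-DKO against MC38-CMAS KO and 1756 in place of 3509 in the line labelled FUT4. In these comparisons not every pair of same-numbered samples exceeded a correlation of 0.1. The lowest was -0.25, in MC38-CMAS KO against MC38-MOCK#1. In MC38-DKO against MC38-CMAS KO all 3 were positive (0.091 to 0.24), with the lowest just under that limit. Apart from Galnt1 and Galnt11 in the dCas-VPR lines the block changed no member call. Without a trend the counts were 1135, 726, 40, 717, 692 and 2270 in the same order, with 3430 in place of 5166 in MC38-FUT9 and 1389 in place of 2454 between the controls. A fit of all 8 lines gave 2154 in MC38-CMAS KO, 148 in MC38-DKO, 2924 in MC38-WT, 2360 in MC38-DKO against MC38-CMAS KO and 3889 between the controls. With an absolute log2 fold change above 1 the genes called were 828 in MC38-COSMC KO, 580 in MC38-CMAS KO, 651 in MC38-WT, 591 in MC38-DKO against MC38-CMAS KO, 1447 in the line labelled FUT4, 1852 in MC38-FUT9, 1064 between the controls, 2519 in place of 6922 in MC38-FUT9 against the line labelled FUT4, 1982 in place of 4736 for the interaction and 4187 in place of 10088 in the F-test. Leaving out 1 sample gave 675 to 2137 in MC38-COSMC KO, 122 to 876 in MC38-CMAS KO, 0 to 4 in MC38-DKO, 31 to 693 in MC38-WT, 231 to 761 in MC38-DKO against MC38-CMAS KO, 1621 to 3112 in the line labelled FUT4, 3089 to 5065 in MC38-FUT9 and 632 to 1737 between the controls. With the same total, the share of called genes that were higher moved from 53.3 to 39.2% in MC38-COSMC KO. With 3 samples a line, members at a few normalized counts could not show a change.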

Other observations

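Fut9 RNA and Galnt1 RNA did not follow the same order in the dCas-VPR lines. Fut9 was 0, 0 and 1 in MC38-MOCK#2, 209, 171 and 186 in the line labelled FUT4 and 955, 641 and 676 in MC38-FUT9. Galnt1 was lowest in the line with the intermediate Fut9 values (540 to 578) and highest in the line with the largest (1011 to 1130). Over the 24 libraries Galnt1 and Galnt7 had r = 0.76, Galnt1 and Galnt10 r = -0.61 and Galnt7 and Galnt10 r = -0.47. These describe 8 lines with 3 samples each that share library scaling.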
